A study of Mus musculus with 2 samples.

Results

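The 5 genes of zinc handling described here were the metallothioneins Mt1 and Mt2, the zinc exporter Slc30a1, the zinc importer Slc39a14, and Mtf1, which encodes the zinc-sensing transcription factor of this system. They were taken by symbol from the gene table of the series, 5 of its 28692 gene rows. The series held 2 droplet-based single-cell libraries from C57B/6 mice, 12 weeks of age, prepared from the tibialis anterior, a shin muscle. The injured library came from muscle collected 24 hours (day 1) after intramuscular injection of 1.2% barium chloride, a salt that makes muscle fibres degenerate, and the other library from uninjured control muscle. The labels name the injection for both samples, so the sources used here leave unstated whether the uninjured muscle was injected, and how many mice a library pools. With 1 library per condition there was no replicate spread and no test between conditions. Every interval below is a 95% interval of counting error only.

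Metallothioneins are small cysteine-rich proteins that bind zinc and copper and buffer both in the cytoplasm, and their genes are induced by metals, glucocorticoids, oxidative stress and inflammatory signals. When free zinc rises, MTF-1, the product of Mtf1, enters the nucleus and binds metal response elements in the promoters of Mt1, Mt2 and Slc30a1. Slc30a1 carries zinc out across the plasma membrane. Slc39a14 carries zinc, and also iron and manganese, into cells, and in liver it is induced by interleukin 6.

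Mt1 and Mt2 lie next to each other on chromosome 8 of the mm10 build, Mt1 at chr8:94179082-94180327 and Mt2 at chr8:94172664-94173568, both on the plus strand with 5514 bases from the end of Mt2 to the start of Mt1. Slc30a1 lies at chr1:191906767-191913247 on the plus strand, Slc39a14 at chr14:70303469-70351425 on the minus strand and Mtf1 at chr4:124802104-124849800 on the plus strand. All are annotated as protein coding. The 2 metallothionein transcripts shared no run longer than 20 bases, but how the counting treated reads that match both was not tested. Antisense genes are annotated over Mt2 and over Slc30a1, and Mtf1 overlaps 1110065P20Rik on the other strand and an rRNA gene on its own. The sources used here do not say if the authors' counting used strand, and whether reads of such partners entered the counts was not tested.

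The promoters of the 3 genes below are shown because they carry the element through which MTF-1 acts. The element was searched as TGCACNC or TGCGCNC on both strands in 300 bases around each RefSeq transcription start (250 before it and 50 after, GRCm38.p6, the mm10 assembly). Of the 5 genes, 4 matched an entry, and Slc39a14 was not among them. The 250 bases before each start are printed 5′ to 3′ on the plus strand, with the matches in capitals, at chr8:94178839-94179088 for Mt1, chr8:94172368-94172617 for Mt2 and chr1:191906531-191906780 for Slc30a1.
Mt1: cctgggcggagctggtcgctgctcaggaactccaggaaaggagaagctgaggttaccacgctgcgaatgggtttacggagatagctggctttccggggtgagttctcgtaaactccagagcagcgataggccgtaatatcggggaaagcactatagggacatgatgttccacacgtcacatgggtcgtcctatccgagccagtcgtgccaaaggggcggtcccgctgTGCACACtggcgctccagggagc
Mt2: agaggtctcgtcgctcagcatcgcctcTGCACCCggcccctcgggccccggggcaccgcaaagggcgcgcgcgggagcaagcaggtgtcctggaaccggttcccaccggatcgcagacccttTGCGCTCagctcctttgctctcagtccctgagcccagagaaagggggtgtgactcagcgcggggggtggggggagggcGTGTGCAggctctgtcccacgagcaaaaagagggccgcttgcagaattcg
Slc30a1: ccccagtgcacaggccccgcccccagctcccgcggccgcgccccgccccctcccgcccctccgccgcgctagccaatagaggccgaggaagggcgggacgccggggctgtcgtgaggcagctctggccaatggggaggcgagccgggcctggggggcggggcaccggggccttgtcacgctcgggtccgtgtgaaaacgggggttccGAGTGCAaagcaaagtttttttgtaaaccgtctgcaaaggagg
The window of Mt1 held 3 matches, TGCACAC at -23 to -17, TGCACTC at 3 to 9 and TGCGCTC at 21 to 27, where positions are counted from 1 at the transcription start. Mt2 held 4, TGCACCC at -223 to -217 and TGCGCTC at -128 to -122 on the plus strand, and TGCACAC at -50 to -44 and TGCGCAC at 5 to 11 on the minus strand. Slc30a1 held 2, both on the minus strand, TGCACTC at -43 to -37 and TGCGCTC at 31 to 37. Mtf1 held none. Of 32851 RefSeq promoters of this length, 25.7% held at least 1 match, 7.11% at least 2, 1.97% at least 3 and 0.517% at least 4. An antioxidant response element, searched as TGACNNNGC on both strands, was found at -79 to -71 of Mt2 (TGACTCAGC) and on the minus strand at -82 to -74 of Slc30a1 (TGACAAGGC), and in 12.4% of all promoters. These matches are letters in a window and were not measured as binding sites. The search used 1 annotated start per gene, although 3 Mt1 and 2 Mt2 transcripts are annotated. These starts differ from the gene starts given above, so the positions hold for the RefSeq starts only. The bases printed for Mt2 end at 94172617, before its gene start at 94172664, and all 4 Mt2 matches lie before that gene start. Those for Mt1 end at 94179088, past its gene start at 94179082. Those for Slc30a1 end at 191906780, past its gene start at 191906767. Elements outside these windows, or near any other start, were not searched, so a missing match is no sign that a gene lacks the element.

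Levels are given in CPM, a gene's UMIs (unique molecular identifiers, which mark captured transcripts) scaled to a common UMI total in each cell class (the counts-per-million scale). As reads come from the 3′ end, no correction for gene length was made. There were 39014762 UMIs on 4489 barcodes in the injured library (median 7282) and 22994502 on 5581 in the uninjured library (median 3237). After filtering, 4260 injured and 5139 uninjured cells remained. A difference is called higher or lower here when the ratio of injured over uninjured and its whole interval lay past 2-fold. Clusters were named from marker lists, with the 5 genes and all their relatives kept out of the clustering. The libraries differed in sex-linked transcripts, with 0 Xist UMIs and 4456 Y-linked UMIs in the injured library against 16575 and 0 in the uninjured library, so sex and injury cannot be told apart, and they shared 33 barcode sequences.

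In all, 6 cell classes had at least 50 cells in each library and were compared. Monocyte and macrophage-like cells numbered 2729 injured and 87 uninjured, endothelial-like cells 451 and 2629, fibro-adipogenic progenitor (FAP)-like cells 408 and 800, dendritic-like cells 252 and 58, tenocyte-like cells 167 and 448, and pericyte and smooth muscle-like cells 133 and 106. FAPs are the mesenchymal cells between muscle fibres, and tenocytes the fibroblasts of tendon. Their clusters carried at least 8 of 10 listed markers for FAP-like, 9 of 10 for endothelial-like and tenocyte-like, 10 of 10 for smooth muscle-like and 8 of 12 for monocyte and macrophage-like cells, but 5 of 9 for dendritic-like cells. Satellite cells, the muscle stem cells, were named in the uninjured library only (251 cells), and glial-like cells numbered 48 injured and 249 uninjured. Within most classes the libraries fell into different clusters: 397 of the 408 injured FAP-like cells formed a cluster led by Cxcl5, Cxcl14 and Penk that held no uninjured cell, and all 167 injured tenocyte-like cells one led by Thbs4, Angptl7 and Lox with 4 uninjured cells.

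Mt2 had 8725 UMIs in 167 injured tenocyte-like cells, 4148 CPM (4062 to 4236), against 1010 UMIs in 448 uninjured ones, 426 CPM (399.9 to 453). Mt1 stood at 3796 CPM (3713 to 3880) in injured and 712 (678 to 747) in uninjured tenocyte-like cells. Both metallothioneins thus rose in tenocyte-like cells, Mt2 9.74-fold (9.13 to 10.4) and Mt1 5.33-fold (5.06 to 5.62). Ranked by UMIs among 13315 genes seen in injured tenocyte-like cells, Mt2 was number 31 and Mt1 number 41, and in uninjured ones, with 14355 genes, Mt2 was number 315 and Mt1 number 195. Nearly every injured tenocyte-like cell carried them: Mt1 was found in 98.8% of injured and 67.6% of uninjured cells, and after each cell was thinned to 1000 UMIs in 82.0% and 33.5%. The median injured cell had 25.6 Mt1 UMIs per 10000, with a 10th percentile of 5.77 and a 90th of 80.5, and the median uninjured cell 3.64, with a 10th percentile of 0 and a 90th of 21.7.

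In tenocyte-like cells 2 of the 5 genes were called higher and none lower, where 4.04% of the 9706 genes with at least 20 UMIs were called higher and 7.87% lower. In FAP-like cells 3 of 5 were called higher, against 8.44% of 11384 genes, and 17.3% were called lower. In endothelial-like cells 2 of 5 were called higher, against 6.38% of 11212 genes, with 8.13% lower. In pericyte and smooth muscle-like cells 1 of 5 was called higher, against 3.77% of 8036 genes, with 5.13% lower. In monocyte and macrophage-like cells none of the 5 was called, where 2.16% of 10280 genes were higher and 6.84% lower. In dendritic-like cells 2 of 5 were called lower, against 2.86% of 6477 genes, and none higher, against 1.9%. By gene, Mt2 was called higher in 4 of the 6 classes and Mt1 in 3, both were called lower in dendritic-like cells, Slc39a14 was called higher in FAP-like cells alone, and Slc30a1 and Mtf1 were called in no class.

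**Figure D1:**
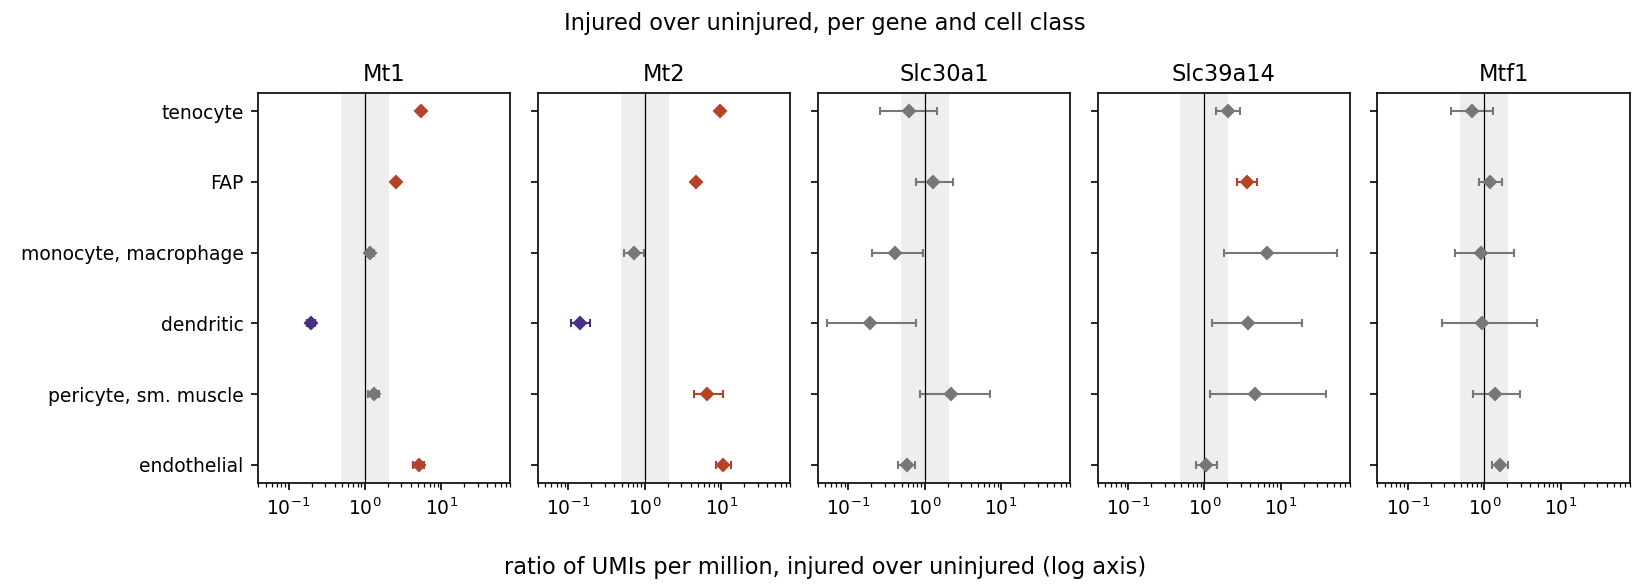
Ratio of CPM, injured over uninjured, for each of the 5 genes in the 6 compared cell classes (log axis), with 95% intervals of counting error as bars. Red points are called higher, purple points lower and grey points neither; the shaded band spans ratios between 0.5 and 2. Mt1 and Mt2 lie to the right of the band in tenocyte-like, FAP-like and endothelial-like cells and to its left in dendritic-like cells.

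In FAP-like cells Mt2 stood at 2091 CPM (2056 to 2126) in the injured and 454 (431 to 476) in the uninjured library, and Mt1 at 1817 (1784 to 1850) and 708 (680 to 737). Mt2 rose 4.61-fold (4.38 to 4.86) and Mt1 2.57-fold (2.46 to 2.68). The share of FAP-like cells with an Mt2 UMI at 1000 UMIs per cell was 74.8% injured and 23.5% uninjured. Uninjured FAP-like cells were not uniform: the cluster led by Smpd3 and Pi16 (257 cells) had Mt1 at 1205 CPM (1140.4 to 1273) and Mt2 at 934, and the cluster led by Myoc and Itm2a (489 cells) had Mt1 at 466 (438 to 496) and Mt2 at 238. The injured FAP-like cells therefore stood above each of the uninjured clusters, but by less over the Pi16 cluster.

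Together the FAP-like and tenocyte-like cells, 9.58% and 3.92% of the injured cells, held 51.4% and 32.9% of all Mt2 UMIs of the injured library. Mt1 was spread differently, with 27.1% in FAP-like, 18.3% in tenocyte-like and 47.3% in monocyte and macrophage-like cells, which made up 64.1% of the injured cells and held 7.49% of its Mt2 UMIs. In the uninjured library satellite-like cells, 4.88% of the cells, held 28.5% of the Mt2 UMIs. Over all kept cells, a mix of classes that differs between the libraries, Mt1 stood at 1190.0 CPM in the injured and 361 in the uninjured library, and Mt2 at 723 and 233. There 3 of the 5 genes, Mt1, Mt2 and Slc39a14, were called higher and none lower, where 8.79% of 14470 genes were called higher and 29.7% lower.

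**Figure D2:**
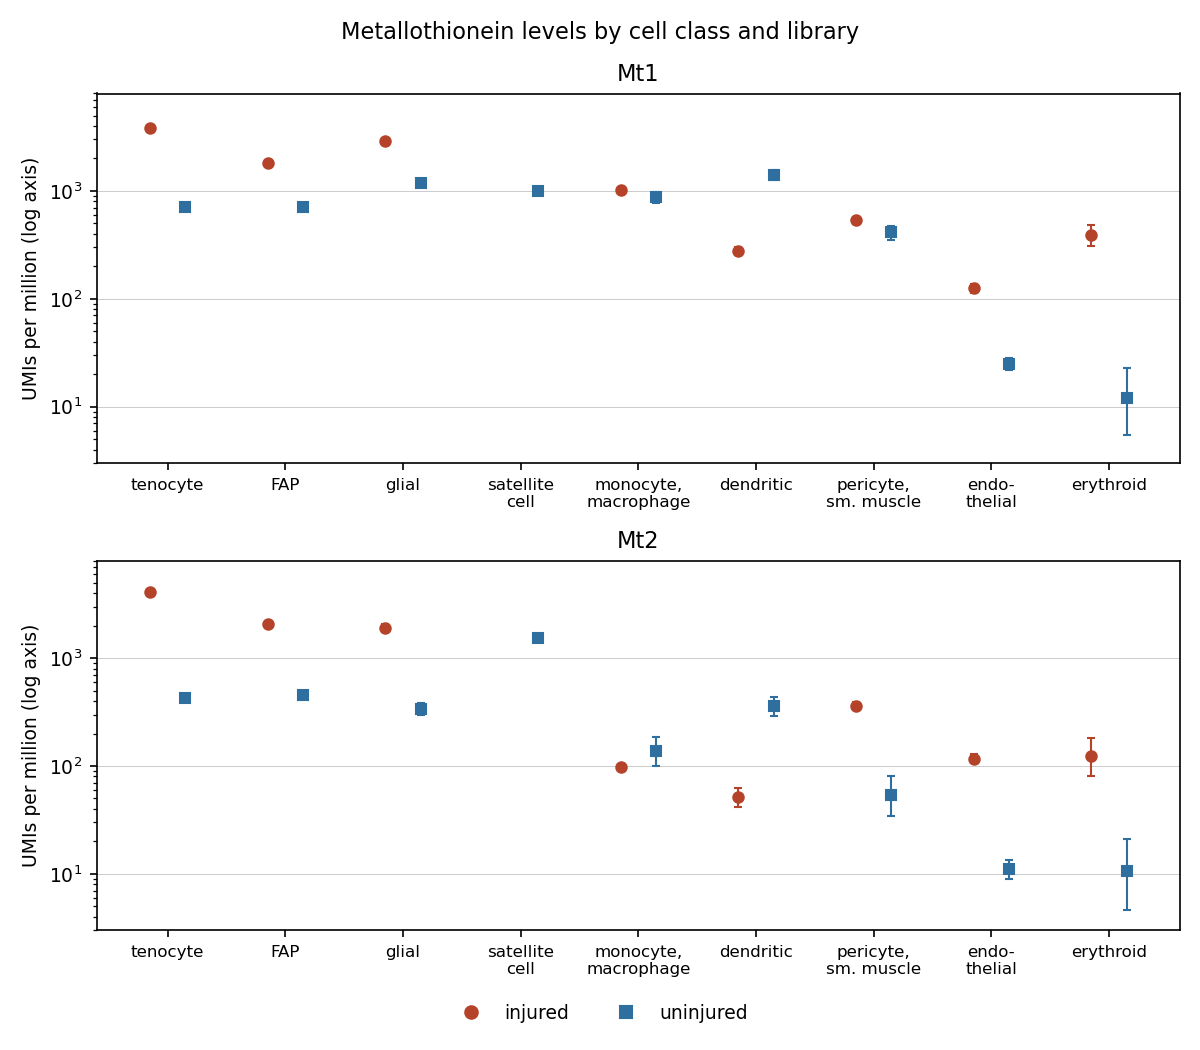
Mt1 (upper panel) and Mt2 (lower panel) in CPM of each cell class (log axis), injured (red circles) beside uninjured (blue squares), for classes with at least 20 cells in that library. Bars are 95% Poisson intervals, hidden by the symbol where they are short. Tenocyte-like and FAP-like cells of the injured library hold the highest Mt2 levels, 4148 and 2091, and satellite-like cells lead in the uninjured library with 1524.

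Monocyte and macrophage-like cells were the largest injured class and had high Mt1 and low Mt2. Mt1 stood at 1023 CPM (1009 to 1037) in 2729 injured and 869 (769 to 977) in 87 uninjured cells, a ratio of 1.18 (1.05 to 1.33), and Mt2 at 98.3 (94 to 103) and 138 (100.3 to 185), a ratio of 0.71 (0.53 to 0.98). Neither ratio reached 2-fold. The injured cells were mostly of 4 clusters with few or no uninjured cells (0, 0, 1 and 15): Mt1 stood in their injured cells at 1199 CPM in the cluster led by Arg1 and Cxcl3 (905 cells), 1126 in that led by C1qb and C1qa (846 cells), 784 in that led by Cd74 and H2-Ab1 (283 cells) and 462 in that led by Hp and Ly6c2 among others (649 cells). Mt2 was between 39.1 and 105 CPM in these 4 clusters.

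Another cluster of this class, led by Retnla, Cd209f and Folr2, genes known from tissue-resident macrophages, held 46 injured and 71 uninjured cells and differed from the class as a whole. There Mt2 stood at 1474 CPM in injured and 168 in uninjured cells, 8.77-fold higher (6.45 to 12.2), and Mt1 at 2967 and 1051, 2.82-fold higher (2.47 to 3.23). All 46 injured cells had a UMI of each metallothionein, and the 3 highest cells held 22.3% of the cluster's injured Mt2 UMIs. Of the uninjured cells 12 had an Mt2 UMI and 53 an Mt1 UMI, and the 3 highest held 63.6% of the 44 Mt2 UMIs, so the uninjured Mt2 level, and with it the ratio, rests on few cells.

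Of all clusters, 8 held at least 20 cells of each library, a limit set after the clusters were seen. Among them was the glial-like cluster led by Col20a1 and Lgi4 (37 injured and 147 uninjured cells). Mt2 stood there at 1713 CPM in injured and 136 in uninjured cells, 12.6-fold higher (9.48 to 17.1), and Mt1 at 2447 and 514, 4.76-fold higher (4.04 to 5.62). Both metallothioneins were thus higher in the injured glial-like cells, which were under 50 in number and so not among the compared classes.

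Dendritic-like cells, a single cluster led by Cd209a and class II genes, went the other way. Mt1 had 544 UMIs in 252 injured cells, 275 CPM (253 to 299), and 386 UMIs in 58 uninjured cells, 1400.0 CPM (1264 to 1547), and so fell 5.09-fold (4.45 to 5.81). Mt2 stood at 51.1 CPM (41.6 to 62.1) in injured and 359 (292 to 437) in uninjured cells and fell 7.03-fold (5.27 to 9.36). With each cell thinned to 1000 UMIs, Mt1 was found in 20.2% of injured and 56.9% of uninjured cells. The 3 highest of the 58 uninjured cells held 22.3% of their Mt1 UMIs and 45.5% of their Mt2 UMIs, so the uninjured Mt2 level rests on few cells. As 5 of 9 dendritic markers were present, whether injured and uninjured cells of this cluster are the same kind of cell was not tested.

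In pericyte and smooth muscle-like cells, a cluster led by Acta2, Tagln and Myh11, Mt2 was called and Mt1 was not. At Leiden resolution 2 the class split into a cluster led by Kcnj8 and Vtn (122 injured and 23 uninjured cells) and one led by Acta2 and Myh11 (14 and 83). The mix of cells thus differed between the libraries, and its part in the ratios and shares of this class was not tested. A further 209 uninjured cells, led by Rgs5 and Kcnj8 and called mixed, had Mt1 at 119 CPM and Mt2 at 34.4. Mt2 stood at 357 CPM (327 to 389) in 133 injured and 54.1 (34.3 to 81.2) in 106 uninjured cells and rose 6.59-fold (4.35 to 10.5). Mt1 stood at 537 (501 to 576) and 412 (353 to 478), a ratio of 1.30 (1.11 to 1.55) that did not reach 2-fold. The Mt2 ratio was 4.23 with no doublet removal, and the Mt1 ratio was 2.58 and called higher when each cell was named by its own marker score.

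Endothelial-like cells had the lowest Mt1 of the compared classes in each library. Mt1 stood at 126 CPM (114 to 138) in 451 injured and 24.8 (21.7 to 28.3) in 2629 uninjured cells, 5.06-fold higher (4.30 to 5.97), and Mt2 at 117 (106 to 129) and 11.1 (9.02 to 13.5), 10.6-fold higher (8.47 to 13.3), or 22.3-fold higher with cells thinned to 1000 UMIs. Erythroid-like cells, rich in haemoglobin, were taken as a rough gauge of free RNA: 27 of the injured library had Mt1 at 391 CPM and Mt2 at 124, and 81 of the uninjured library had 12.0 and 10.7. Scaled to UMIs other than haemoglobin, these cells had Mt1 at 773 and Mt2 at 245 in the injured and 49.2 and 43.8 in the uninjured library. Of the 202287 UMIs of the injured erythroid-like cells 102162 were not haemoglobin, and whether these are free RNA alone was not tested. The gauge also rests on few cells, since 1 injured erythroid-like cell held 16 of the 25 Mt2 UMIs and the 3 highest held 58.2% of the Mt1 UMIs. Mt1 was found in 40.1% of injured endothelial-like cells (median depth 5813 UMIs) and 63.0% of injured erythroid-like cells (median 6829), and in 4.79% (median 2792) and 7.41% (median 5763) of the uninjured ones. The endothelial shares were thus below those of the erythroid-like cells. As another measure, 28 markers of other cell types stood in injured endothelial-like cells at a median of 2.21% of their level over all injured cells, with a middle range of 1.96% to 4.44%, where Mt1 stood at 10.6% and Mt2 at 16.2%. The highest of these markers, Tagln, stood at 325%. In uninjured endothelial-like cells 35 such markers had a median of 2.79% and a middle range of 1.91% to 5.99%. Mt1 stood there at 6.87%, above that range, and Mt2 at 4.76%, within it. How much of the endothelial difference free RNA of the injured library makes up was not tested.

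Low values of other classes were set beside the same erythroid-like cells, and how much of them is free RNA was not tested. Mt2 in injured monocyte and macrophage-like cells (98.3 CPM, 23.1% of cells) and in injured dendritic-like cells (51.1, 17.9%) stood below or near the 124 CPM and 22.2% of the injured erythroid-like cells, and Mt1 in injured dendritic-like cells (275, 64.7%) below or near 391 and 63.0%. As 64% of the erythroid-like Mt2 UMIs came from 1 cell, the comparison of Mt2 levels rests on that cell. Tenocyte-like and FAP-like levels of both metallothioneins in the injured library lay above the erythroid-like levels with no overlap of intervals.

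Within the uninjured endothelial-like cells, the cluster led by Gkn3, Stmn2 and Sema3g, genes of arterial endothelium, had Mt1 at 69.7 CPM (58.0 to 83.1) in 457 cells, and the capillary-type cluster led by Hspa1a and Car4 8.74 (5.94 to 12.4) in 1000 cells. In the first of these, Mt2 was 5.05-fold higher (2.71 to 9.15) in 28 injured cells, at 93.8 CPM against 18.6, but 1 cell held 10 of the 19 injured Mt2 UMIs. Mt1 was 2.34-fold higher there (1.54 to 3.45), with an interval not past 2-fold. In the cluster led by Selp and Plvap, genes of venules, Mt2 was 7.0-fold higher (4.35 to 11.6), at 128 CPM in 51 injured and 18.3 in 336 uninjured cells, where the 3 highest cells held 40.6% of the injured and 64% of the uninjured Mt2 UMIs. Mt1 was 4.89-fold higher there (3.24 to 7.48). Most injured cells of the class (358) lay in a cluster led by Pgf and Apln with 12 uninjured cells. The clusters led by Hspa1a and by Timp4 held 1000 and 824 uninjured cells but 12 and 2 injured ones. The mix of endothelial-like cells thus differed between the libraries, and its part in the ratios and shares of the class was not tested.

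**Figure D3:**
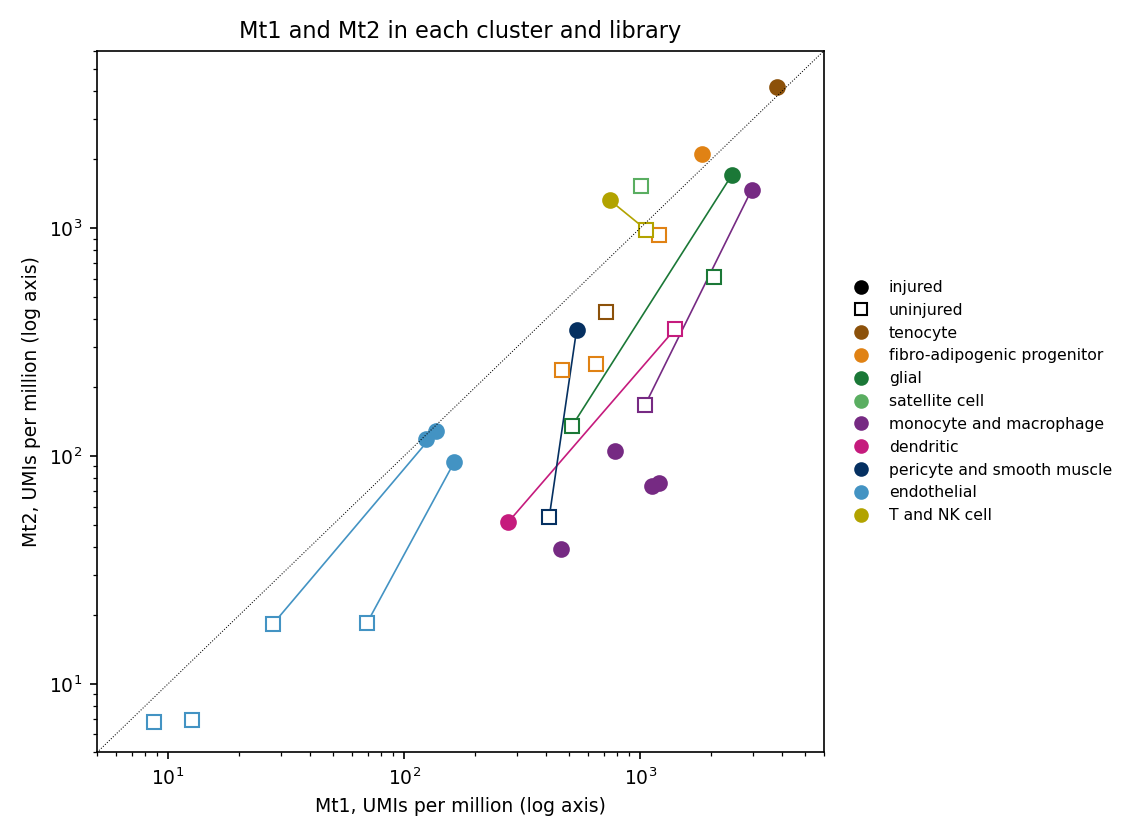
Mt2 against Mt1, both in CPM (log axes), for clusters of the classes in the legend, in each library with at least 20 of their cells; filled circles are injured and open squares uninjured, colours give the cell class and lines join the libraries of 1 cluster. The dotted line marks equal levels. In most joined pairs the injured point lies above and to the right of the uninjured one, in the dendritic-like pair it lies below and to the left, in the T and NK-like pair above and to the left, and 4 injured monocyte and macrophage-like clusters lie far below the line.

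The balance of the paralogs does not depend on the total of a class. Mt1 made up 47.8% (47.0 to 48.5) of the Mt1 and Mt2 UMIs in injured and 62.6% (60.7 to 64.4) in uninjured tenocyte-like cells. The share was 46.5% injured and 61% uninjured in FAP-like, 51.7% and 69.1% in endothelial-like, 60.1% and 88.4% in pericyte and smooth muscle-like and 60.1% and 77.7% in glial-like cells. In each of these 5 classes the injured share lay below the uninjured one with no overlap of intervals, so Mt2 was higher relative to Mt1 in the injured library. For pericyte and smooth muscle-like and for endothelial-like cells the mix of cells differed between the libraries, as given above. The myeloid classes differed from these: Mt1 made up 91.2% (90.9 to 91.6) in injured and 86.3% (82.0 to 89.9) in uninjured monocyte and macrophage-like cells, and 84.3% and 79.6% in dendritic-like cells, where the intervals overlapped. Among the classes with at least 50 cells in the uninjured library, satellite-like cells alone had more Mt2 than Mt1 UMIs, at an Mt1 share of 39.7% (37.7 to 41.8).

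**Figure D4:**
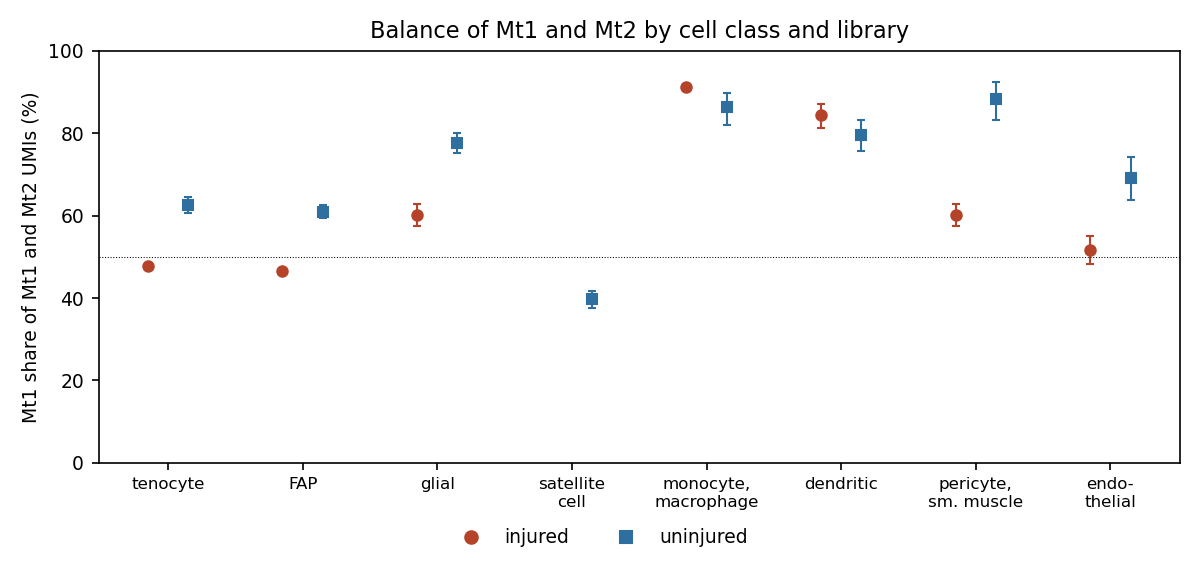
Mt1 share of Mt1 and Mt2 UMIs in percent, by cell class, injured (red circles) beside uninjured (blue squares), with 95% exact binomial intervals; the dotted line marks 50%. Injured shares lie below uninjured ones in tenocyte-like, FAP-like, glial-like, pericyte and smooth muscle-like and endothelial-like cells, and above 80% in both myeloid classes.

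Mt2 was found in a larger share of the cells with Mt1 than of those without it. This held in each class and library with at least 50 cells of which any had Mt1, and was not particular to tenocyte-like and FAP-like cells. In thinned satellite-like cells the shares were 63.9% with and 35.7% without Mt1. In injured monocyte and macrophage-like cells they were 9.49% and 3.28%. With cells thinned to 1000 UMIs, an Mt2 UMI was found in 91.2% of the 137 injured tenocyte-like cells with Mt1 and in 63.3% of the 30 without it, and in 40.7% of 150 and 11.4% of 298 uninjured ones. In FAP-like cells the shares were 82.2% with and 57.4% without Mt1 in the injured library, and 39.1% and 13.8% in the uninjured library. The other genes were too sparse for such a reading: Slc30a1, for example, was found in 0.699% of injured FAP-like cells with Mt1 and 0.820% of those without.

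Among the 6 compared classes, the order by Mt1 in the injured library ran from tenocyte-like (3796 CPM) through FAP-like (1817), monocyte and macrophage-like (1023), pericyte and smooth muscle-like (537) and dendritic-like (275) to endothelial-like cells (126), a 30.2-fold span with no overlap between neighbours. Of the classes with fewer cells, injured glial-like cells (48 cells) stood at 2881 CPM (2681 to 3093), between tenocyte-like and FAP-like cells, and erythroid-like cells (27 cells) at 391. In the uninjured library, among all classes with at least 50 cells, it ran from dendritic-like (1400.0) and glial-like (1189) through satellite-like (1004), monocyte and macrophage-like (869), tenocyte-like (712), FAP-like (708) and pericyte and smooth muscle-like cells (412) to endothelial-like (24.8), lymphatic endothelial-like (18.1) and erythroid-like cells (12.0). There the neighbours dendritic and glial, satellite and monocyte, tenocyte and FAP, and the last 3 did not differ beyond counting error. For Mt2 the injured order of the compared classes put pericyte and smooth muscle-like (357) before endothelial-like (117) and monocyte and macrophage-like cells (98.3), and the uninjured order put satellite-like cells first at 1524 CPM (1444 to 1607), ahead of FAP-like (454), tenocyte-like (426) and dendritic-like cells (359).

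Slc30a1, the exporter, was low in every class. Among the compared classes it was highest in pericyte and smooth muscle-like and endothelial-like cells of the injured library and in endothelial-like cells of the uninjured library. It stood at 23.1 CPM (18.4 to 28.7) in injured and 39.6 (35.6 to 43.9) in uninjured endothelial-like cells, a ratio of 0.58 (0.45 to 0.75), and at 26.2 (18.6 to 35.8) and 11.8 (3.82 to 27.5) in pericyte and smooth muscle-like cells. Neither ratio was past 2-fold with its interval. In the other compared classes it lay between 3.54 and 10.2 CPM in the injured and between 5.76 and 25.1 in the uninjured library. In contrast to Mt1, FAP-like cells, with 7.52 CPM in the injured and 5.76 in the uninjured library, and tenocyte-like cells, with 4.75 and 7.59, were near the lower end of its range. Of all Slc30a1 UMIs, endothelial-like cells held 20.3% in the injured and 72.1% in the uninjured library, where they were 10.6% and 51.2% of the cells. Over all kept cells Slc30a1 stood at 11 CPM injured and 24.2 uninjured.

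Slc39a14, the importer, was called higher in FAP-like cells, with 364 UMIs and 55.8 CPM (50.2 to 61.9) in the injured and 54 UMIs and 15.5 (11.7 to 20.3) in the uninjured library, a 3.59-fold difference (2.69 to 4.87). With cells thinned to 1000 UMIs the ratio was 3.50 (1.75 to 7.29), as large but with an interval that no longer passed 2-fold. In tenocyte-like cells it stood at 43.3 CPM (34.8 to 53.1) and 21.5 (16.0 to 28.3), a ratio of 2.01 (1.41 to 2.89), and in monocyte and macrophage-like cells at 40.7 (38.0 to 43.6) and 6.27 (0.76 to 22.7), a ratio of 6.49 (1.79 to 53.7) that rests on 2 uninjured UMIs. Dendritic-like cells had 41.0 and 10.9 CPM (ratio 3.77, 1.24 to 18.6), pericyte and smooth muscle-like cells 21.5 and 4.71 (4.56, 1.16 to 39.3), and endothelial-like cells 16.6 and 15.7 (1.06). The ratio was above 1 with its whole interval in all of these but the endothelial-like cells, although it passed 2-fold with its interval in FAP-like cells alone. In pericyte and smooth muscle-like cells thinned to 1000 UMIs, no injured UMI of Slc39a14 remained, against 9.43 CPM (0.239 to 52.6) in uninjured cells, and the ratio of 0 had an interval up to 31.1, so no direction could be read there at that depth. In the injured library FAP-like, tenocyte-like, dendritic-like and monocyte and macrophage-like cells, in falling order, were not separated from their neighbours beyond counting error, and the 4 of them stood above pericyte and smooth muscle-like and endothelial-like cells. In the uninjured library satellite-like cells came first with 26.9 CPM (17.2 to 40.0).

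Mtf1, the regulator, was called in no class. It stood at 33.6 CPM (27.8 to 40.2) in injured and 20.8 (18.0 to 24.0) in uninjured endothelial-like cells, a ratio of 1.61 (1.27 to 2.04), at 17.3 and 14.4 in FAP-like, 17.0 and 18.8 in monocyte and macrophage-like, 8.56 and 12.2 in tenocyte-like, 10.1 and 10.9 in dendritic-like, and 35.6 and 25.9 in pericyte and smooth muscle-like cells. The vascular classes came first in the injured library, and the highest was 4.16 times the lowest. Tenocyte-like cells, first for Mt1 and Mt2 in the injured library, were last for Mtf1.

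**Figure D5:**
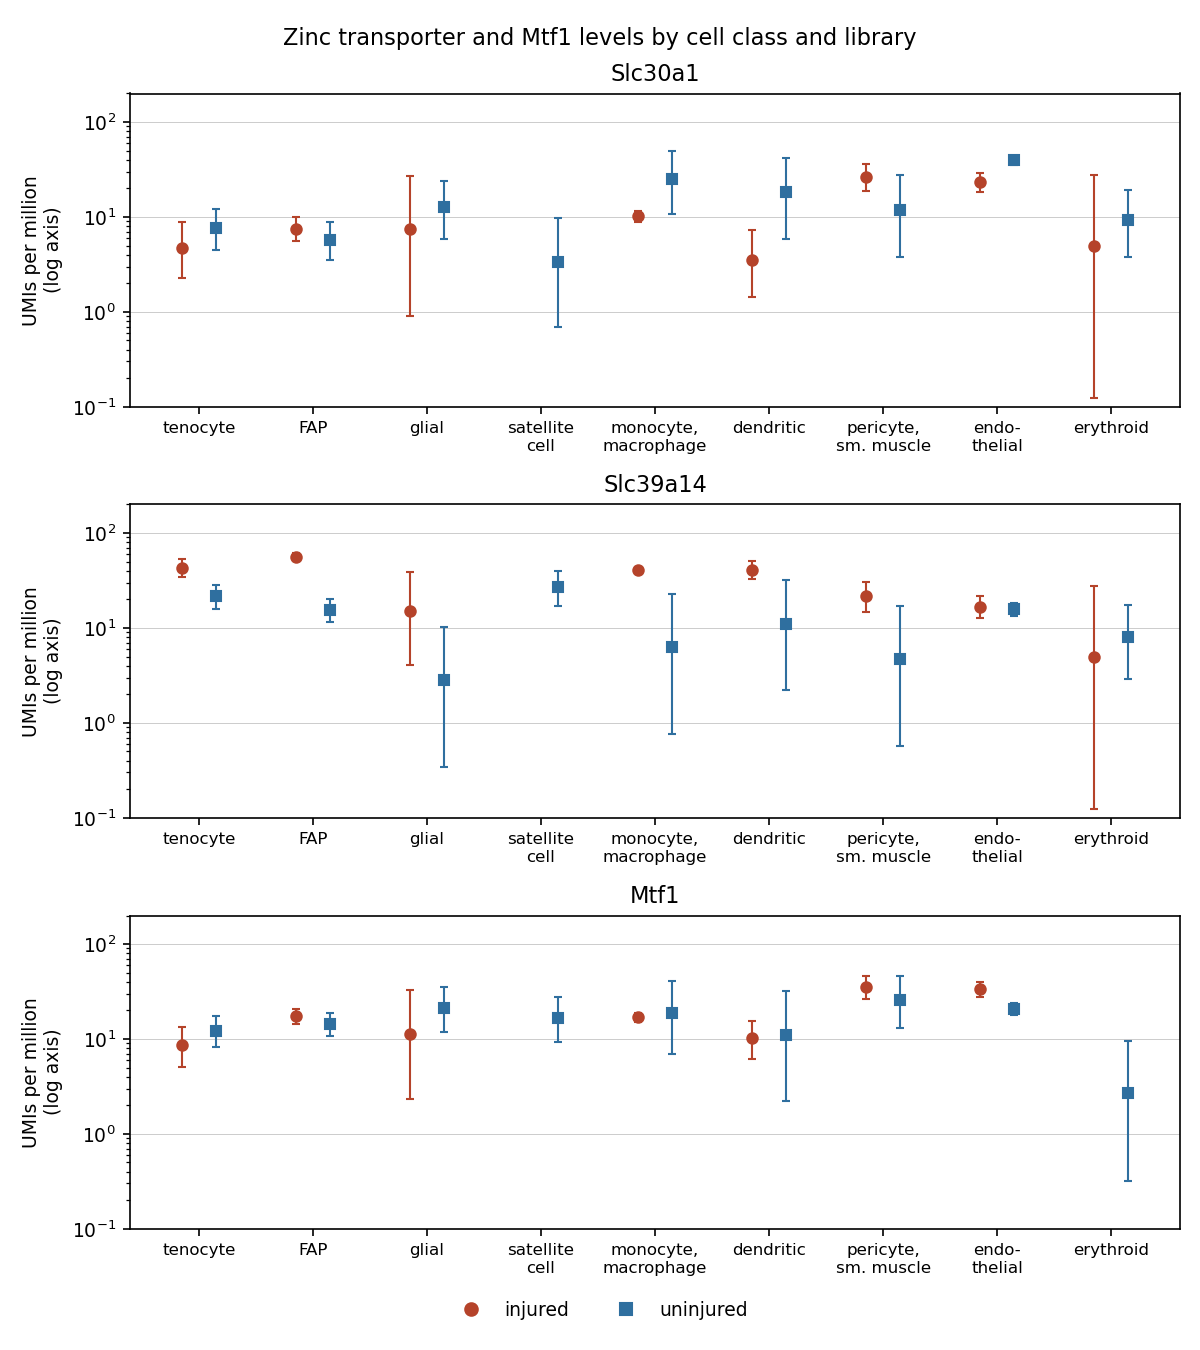
Slc30a1, Slc39a14 and Mtf1 in CPM of each cell class (log axes), injured (red circles) beside uninjured (blue squares), with 95% Poisson intervals; libraries of a class with fewer than 20 cells or no UMI have no point. Slc30a1 is highest in uninjured endothelial-like cells at 39.6, Slc39a14 stands between 40.7 and 55.8 in 4 injured classes, and Mtf1 lies between 8.56 and 35.6 in the compared classes.

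The genes with patterns most like each of the 5 were found by Pearson's r of log2(CPM + 10) over 16 sums of a class in a library, among 10492 genes with at least 200 UMIs. The sums share libraries and depth, and r is a description. For Mt1 they were Lgals1 (0.868), which encodes galectin-1, Mt2 (0.868) and Lrp1 (0.864), a scavenger receptor gene. For Mt2 they were Fndc4 (0.868), Mt1 (0.868) and Pi4k2b (0.860), a lipid kinase gene. For Slc30a1 they were Fnbp1l (0.905), C2cd2l (0.890) and Itpripl1 (0.879), for Slc39a14 Slc7a6 (0.867), an amino acid transporter gene, Nop9 (0.823) and Timp1 (0.816), an inhibitor of matrix proteases, and for Mtf1 they included Mob4 (0.909) and Cenpb (0.881). Between the 5 genes, Mt1 had r = -0.38 with Slc30a1, 0.39 with Slc39a14 and -0.03 with Mtf1.

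The table also held 24 other metallothionein, Slc30a and Slc39a genes, of which 10 to 14 had at least 20 UMIs in a compared class. In tenocyte-like cells 1 of 14 was called higher and 1 lower: Mt3, a metallothionein known best from brain, had 22.4 CPM in injured and 4.22 in uninjured cells, 5.30-fold higher (2.64 to 11.8), and the importer gene Slc39a10 had 5.71 and 30.4, 5.32-fold lower. The Mt3 UMIs of injured tenocyte-like cells came from 11 of 167 cells, 1 of which held 15 of the 47. In endothelial-like cells 1 of 13 was called, the exporter gene Slc30a4, with 64.6 CPM injured and 20.1 uninjured, 3.22-fold higher (2.64 to 3.94). In monocyte and macrophage-like cells 1 of 13 was called, the importer gene Slc39a6, with 25.2 CPM injured against 0 UMIs in 87 uninjured cells, at least 2.68-fold higher against a floor of 3 counts over the group. None was called of 13 in FAP-like, 12 in pericyte and smooth muscle-like and 10 in dendritic-like cells. The median log2 ratio of these relatives lay beside that of all tested genes at 0.40 against -0.21 in endothelial-like, -0.02 against -0.29 in FAP-like, -0.10 against -0.20 in tenocyte-like, 0.68 against 0.13 in pericyte and smooth muscle-like, -0.06 against -0.16 in monocyte and macrophage-like and -0.44 against 0.03 in dendritic-like cells. At most 2 relatives were thus called in a class, where most genes of any kind were not called. Of all tested genes, 4.04% were higher and 7.87% lower in tenocyte-like, 6.38% and 8.13% in endothelial-like and 8.44% and 17.3% in FAP-like cells. The shares were 2.16% and 6.84% in monocyte and macrophage-like, 3.77% and 5.13% in pericyte and smooth muscle-like and 1.9% and 2.86% in dendritic-like cells.

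Immediate early and heat shock genes also differed between the libraries and stand beside these results. Of 12 immediate early genes known to be induced by tissue dissociation, 8 were called lower and 1 higher in injured FAP-like cells, 5 lower in endothelial-like, 4 lower and 1 higher in monocyte and macrophage-like, 3 lower in dendritic-like, 2 lower in tenocyte-like and 1 lower in pericyte and smooth muscle-like cells. Jund, for example, stood at 41.4 CPM in injured and 244 in uninjured tenocyte-like cells. Of 10 heat shock genes, whose products are chaperones, 5 were called higher and none lower in tenocyte-like cells, 4 higher and 2 lower in FAP-like, 2 and 2 in endothelial-like, 1 and none in pericyte and smooth muscle-like, none and 2 in monocyte and macrophage-like, and none and 3 in dendritic-like cells. Hspa1a, the main inducible form, stood at 98.5 CPM in injured and 1153 in uninjured endothelial-like cells. Of all tested genes, 17.3% were called lower in FAP-like, 8.13% in endothelial-like, 7.87% in tenocyte-like and 6.84% in monocyte and macrophage-like cells. Called higher were 8.44%, 6.38%, 4.04% and 2.16% in the same order. Whether cell handling or injury moved these genes, and their part in the metallothionein differences, was not tested.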

How the data were processed

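The deposited values are raw UMI counts per gene and barcode, made by the authors with Cell Ranger 2.1.1 on mm10, per the submitters' processing notes, from 10X 3′ v2 libraries, per the labels, with barcodes already selected. Of the counting, the sources used here give neither the annotation release nor the settings or the minimum per barcode. The group of each library was taken from its title. The 5 genes, the gene lists and the tests were chosen with earlier results of these data known.

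Barcodes with fewer than 200 genes (64 injured and 178 uninjured, with 96.0% and 96.6% haemoglobin UMIs) or over 20% mitochondrial UMIs (4 and 18) were set aside. Scrublet's automatic threshold marked 1 barcode per library and did not work, so the highest scores were removed at an assumed 0.8% per 1000 barcodes (161 and 249). Counts were scaled to 10000 per cell and logged. Then 2000 variable genes, without the 5 genes and their relatives, 30 components, 15 neighbours and Leiden resolution 1 (seed 0) gave 27 clusters. A marker was present with at least 20% of cells and 2 times the median over clusters. Names needed 3 markers. Clusters where another lineage's markers, at 25% or more of their highest cluster mean, reached 70% of the own share were called mixed (13 injured and 318 uninjured cells, a pericyte cluster and the muscle fibre cluster). This rule was set after an earlier form had called the smooth muscle cluster mixed, and classes may differ from the authors'.

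UMIs of a class were summed per library, with exact Poisson intervals, exact conditional binomial intervals for ratios and Clopper-Pearson intervals for shares, all at 95% and for counting error only. Depth sets their width: the 2 UMIs of Slc39a14 in uninjured monocyte and macrophage-like cells leave a 53.7-fold upper limit. All genes with at least 20 UMIs in a class were treated alike. No p-value was made from cells. Of the genes outside the 5, the text names relatives called past 2-fold, at most 4 genes per other list and class by size of change, and the 3 most similar genes by r; some items under these rules are not reported here. The ratio code was tested on simulated counts. The tools were edgeR 4.0.16 in R 4.3.3 (scaling factors only) and, in Python 3.11.15, numpy 2.4.6, scipy 1.17.1 (intervals), scanpy 1.11.5 (clustering) and leidenalg 0.10.2. The alternatives were other scalings, thinning to 1000 UMIs, a minimum depth per cell set at the shallowest injured barcode, no doublet removal, a 10% mitochondrial limit, other clusterings, naming by each cell's markers, a minimum of 1 UMI and, added after seeing the data, calls by size alone.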

Additional observations from a re-analysis of the deposited data

Results flagged for a closer look

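Both metallothioneins were called higher in some injured cell classes and lower in another. Mt1 was called higher in injured tenocyte-like (ratio 5.33), endothelial-like (5.06) and FAP-like cells (2.57) and lower in dendritic-like cells (0.197). Mt2 was called higher in endothelial-like (10.6), tenocyte-like (9.74), pericyte and smooth muscle-like (6.59) and FAP-like cells (4.61) and lower in dendritic-like cells (0.142). The difference between the classes was not tested, since each condition had 1 library.

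Barcodes with fewer than 200 genes, nearly all of whose UMIs were haemoglobin, entered no comparison but held metallothionein UMIs. In the injured library 5 Mt1 and 5 Mt2 UMIs were found among 12963 other UMIs, or 386 CPM (125 to 900.1) of these other UMIs for each gene. The uninjured library had 1 Mt1 and 2 Mt2 UMIs among 40404 other UMIs, 24.8 CPM (0.627 to 138) and 49.5 (5.99 to 179). An Mt1 UMI was found in 7.81% of the 64 injured and 0.562% of the 178 uninjured barcodes, and an Mt2 UMI in 4.69% and 1.12%.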

How the results depend on the processing

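No paired analysis was possible because each condition had 1 library, and no library could be left out. No result turned its direction where it was called. The calls of Mt1 and Mt2 in FAP-like, tenocyte-like, endothelial-like and dendritic-like cells, and of Mt2 in pericyte and smooth muscle-like cells, held under each alternative that gave a value. Mt1 ratios ranged from 4.95 to 5.82 in endothelial-like, 2.50 to 3.16 in FAP-like, 4.82 to 6.14 in tenocyte-like and 0.182 to 0.221 in dendritic-like cells. The Slc39a14 call in FAP-like cells was lost with thinning to 1000 UMIs, where the ratio was 3.50 and few UMIs remain, and over all settings that ratio was 3.49 to 4.42. With thinning the uncalled Slc39a14 ratio in pericyte and smooth muscle-like cells was 0, on 0 injured UMIs. Genes called higher in monocyte and macrophage-like cells were 1 of the 5 (Slc39a14) with TMM scaling, with median-of-ratios scaling and with the mean of per-cell values, against 0. In pericyte and smooth muscle-like cells they were 2 (Mt1 as well) when cells were named by their own marker score, against 1. The scalings shifted the median gene by up to 0.31 (log2), and the cause of the other changes was not tested.

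By size of the ratio alone, without the interval, the genes called higher were 3 of the 5 in pericyte and smooth muscle-like, 1 in monocyte and macrophage-like and 1 in dendritic-like cells, and 1 was lower in monocyte and macrophage-like cells. Slc39a14 was then also higher in tenocyte-like cells (2.01). In dendritic-like cells Slc30a1 was then also lower (0.195), on 7 injured and 5 uninjured UMIs. Of the relatives of the 5 genes, 3 were then higher in endothelial-like, 3 in pericyte and smooth muscle-like, 3 in monocyte and macrophage-like and 1 in dendritic-like cells, and 1, 3 and 1 lower in the last 3 of these. Relatives called higher in endothelial-like cells were 2 with TMM scaling, 3 with median-of-ratios scaling and 2 with per-cell means. In pericyte and smooth muscle-like cells 1 was higher with per-cell means, and 2 higher and 1 lower when cells were named by their own score. The Slc39a6 call in monocyte and macrophage-like cells fell to 0 relatives with per-cell means, thinning, the 10% mitochondrial limit and naming by cell score. Thinning left 0 relatives higher and 0 lower in tenocyte-like cells. A minimum of 1 UMI gave 1 relative lower in FAP-like, 2 higher in tenocyte-like and 1 lower in pericyte and smooth muscle-like cells.

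The Mt1 share of Mt1 and Mt2 UMIs moved outside its interval in some settings. With thinning it was 47.8% in injured FAP-like, 46.7% in injured tenocyte-like, 56.6% in injured pericyte and smooth muscle-like, 80% in injured dendritic-like and 78.5% in uninjured endothelial-like cells. With cells at least as deep as the shallowest injured barcode it was 63.5% in uninjured endothelial-like and 60.4% in uninjured tenocyte-like cells, and without doublet removal 90.8% in injured monocyte and macrophage-like cells. The 10% mitochondrial limit gave 63.0% in uninjured endothelial-like and 90.3% in uninjured monocyte and macrophage-like cells. Naming by cell score gave 75.4% in uninjured endothelial-like and 82.3% in uninjured pericyte and smooth muscle-like cells. Some alternatives left a class under 50 cells and gave no value: pericyte and smooth muscle-like cells with the 10% limit, with all variable genes in the clustering and at resolution 0.5, monocyte and macrophage-like and dendritic-like cells at that minimum depth, and dendritic-like cells named by cell score. Thinning also left 0 uninjured UMIs, and so no ratio, for Slc39a14 in monocyte and macrophage-like and for Slc30a1, Slc39a14 and Mtf1 in dendritic-like cells.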

Other observations

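Other gene groups tied to metal handling or to known inducers of metallothioneins moved unevenly with them, and their part in the metallothionein differences was not tested. The shares of all tested genes called in each class, given above, stand beside the counts below. Of 10 genes known as NRF2 targets in the defence against oxidants, 5 were called higher and 1 lower in FAP-like cells, 5 higher of 9 measured in monocyte and macrophage-like, 4 higher of 9 in tenocyte-like, 2 higher of 10 in endothelial-like, 2 higher of 8 in pericyte and smooth muscle-like, and 2 higher and 1 lower of 9 in dendritic-like cells. Their median log2 ratio was 1.83 in pericyte and smooth muscle-like, 1.73 in monocyte and macrophage-like, 1.38 in tenocyte-like, 1.34 in FAP-like, 0.98 in endothelial-like and 0.32 in dendritic-like cells, where all tested genes had 0.13, -0.16, -0.20, -0.29, -0.21 and 0.03. The monocyte and macrophage-like median was above those of tenocyte-like and FAP-like cells. No metallothionein was called in that class as a whole, but its mix of clusters differed between the libraries. The cluster led by Retnla held 71 of its 87 uninjured and 46 of its 2729 injured cells. There Mt1 was 2.82-fold and Mt2 8.77-fold higher. A link of the NRF2 targets to the metallothioneins was not tested. Slc7a11, the cystine importer, had 292 CPM in injured and 15.7 in uninjured monocyte and macrophage-like cells, 18.7-fold higher (7.99 to 57.5), and Hmox1, haem oxygenase, 72.7 and 8.85 in tenocyte-like cells, 8.22-fold higher (5.19 to 13.7), while in dendritic-like cells Hmox1 had 9.11 and 61.7, 6.77-fold lower. Of 9 genes of the table that respond to interleukin 6 and STAT3, 4 were called higher in tenocyte-like, 3 in endothelial-like, 2 in FAP-like, 2 in monocyte and macrophage-like, 1 of 8 measured in pericyte and smooth muscle-like and 0 of 7 in dendritic-like cells, and none lower in these classes. Among them Lcn2, an iron-siderophore binding protein, had 304 CPM in injured and 7.17 in uninjured tenocyte-like cells, 42.4-fold higher (26.3 to 73.2), and the acute-phase gene Saa3 188 CPM in injured against 0 UMIs in uninjured tenocyte-like cells, at least 148.5-fold higher against a floor of 3 counts.

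Of 9 glucocorticoid-responsive genes, Tsc22d3, Klf9 and Cdkn1c were among those called lower in endothelial-like (4 lower and 2 higher), FAP-like (3 and 1), tenocyte-like (3 and 2) and monocyte and macrophage-like cells (3 and 2 of 8), with 2 lower and 1 higher of 8 in pericyte and smooth muscle-like and 1 higher of 6 in dendritic-like cells. Tsc22d3 had 24.2 CPM in injured and 127 in uninjured FAP-like cells. Copper genes were called once, Slc31a2 lower in FAP-like cells with 8.59 and 34.0 CPM. Of 10 iron genes, Tfrc, the transferrin receptor, was higher in FAP-like (13.3 and 2.30 CPM) and endothelial-like cells (13.5 and 2.11). The ferritin genes were called higher in tenocyte-like (Fth1, 9804 and 3149), pericyte and smooth muscle-like (Ftl1, 3511 and 958) and monocyte and macrophage-like cells (Ftl1, 24202 and 10347). Slc40a1, the iron exporter, was lower in tenocyte-like cells (2.38 and 17.3) and in FAP-like cells (0.15 and 5.76), where Steap3 was lower too, Slc11a1 was lower in pericyte and smooth muscle-like cells, and none of 5 measured was called in dendritic-like cells.

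Mt4 sat in few cells. Of 368 Mt4 UMIs in the uninjured library 366 lay in 6 of the 30 uninjured cells of the T and NK-like cluster, a set picked after Mt4 was seen. These 6 cells had a median of 20905 UMIs and were led by Krtdap, Fam25c, Krt10, Krt77 and Krt1, keratins and other genes of stratified epithelium, with 31 UMIs of 3 of 10 T and NK markers, whereas the other 24 had a median of 2938 UMIs and 420 UMIs of all 10. In the 24 cells Mt1 stood at 987 CPM and Mt2 at 1086. Over all 30 uninjured cells, 11 had an Mt1 UMI and 8 an Mt2 UMI. The 3 highest of the 30 held 77.1% of the Mt1 and 78.3% of the Mt2 UMIs, so these levels rest on few cells. The 24 injured cells of that cluster had Mt1 at 745 and Mt2 at 1323 CPM.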
